A study of Mus musculus with 8 samples.

Results

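The MHC class I and class II antigen presentation genes were taken as every gene whose symbol in the deposited tables begins with H2-, together with Cd74, Ciita, Nlrc5, B2m, Tap1, Tap2, Tapbp, Psmb8, Psmb9, Psmb10 and Erap1. This gave 54 genes of the 24346 in the tables, or 64 of 34535 listed transcripts. Of the 54, 31 were class I heavy chain genes and 10 were class II chain genes. H2-Bl, which RefSeq lists as a transcribed pseudogene, and H2-Ke6, which encodes a hydroxysteroid dehydrogenase rather than a presenting molecule, carry an H2 symbol but were put in neither class. RefSeq also lists H2-K2, H2-Q5 and H2-T10 as transcribed pseudogenes; these 3 are counted among the class I heavy chain genes here, by their symbols. The deposited transcript accessions of 50 members matched a RefSeq gene, and those of H2-L, H2-M2, H2-T9 and H2-Ea-ps did not.

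The study compared RNA of the uterine epithelium of mice with a conditional knockout of Smad2 and Smad3, whose proteins carry TGF-beta and activin signals from the receptor to the nucleus, with that of control mice. The knockout group, called cKO here, is 5 libraries from Smad2/3 cKO mice, which carry floxed Smad2 (exons 9 and 10), floxed Smad3 (exons 2 and 3) and a Cre recombinase knocked into the progesterone receptor gene (Pgr-cre). The other group is 3 libraries that the labels call control without giving their alleles. Both groups were on a mixed C57BL/6/129S6/SvEv background, and the labels name no treatment. The labels also leave out the age of the mice, the cycle stage and how epithelium was separated from the rest of the uterus. Per the labels, Pgr-cre also acts in the ovary, oviduct, mammary gland and pituitary, so the deletion was not limited to the uterus. Nothing in the labels ties each library to its own animal, so p-values measure the spread among libraries, part of which may be technical.

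MHC class I molecules are carried by nearly all nucleated cells. They consist of a heavy chain and the light chain beta-2-microglobulin, and they show peptides from the cell's interior to CD8 T cells and to natural killer cells. The peptides are cut by the proteasome, pumped into the endoplasmic reticulum by the TAP transporter, trimmed by ERAP1 and loaded with the help of tapasin. Class II molecules are pairs of alpha and beta chains that show peptides from the endosome to CD4 T cells. The invariant chain CD74 fills their groove until the endosome, where H2-DM exchanges its remnant for peptide and H2-O restrains H2-DM. The transactivator CIITA drives class II genes and its relative NLRC5 drives class I genes. Class II is constitutive in dendritic cells, macrophages and B cells, and epithelial cells, those of the uterus included, can make it when exposed to interferon-gamma.

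Expression was measured as FPKM, sequenced fragments corrected for the length of the transcript and the depth of the library, summed per gene and put on 1 scale across libraries by the median ratio (factors 0.924 to 1.06). Estimated depth was 42.9 to 53.9 M fragments per library. Smad2 was lower in cKO, at 3.58 ± 0.378 scaled FPKM in cKO libraries (SD, n = 5) and 6.07 ± 0.342 in control libraries (SD, n = 3), with a log2 fold change of -0.63 ± 0.10 (limma, Benjamini-Hochberg adjusted p = 0.00550). Smad3 was at 30.7 ± 8.97 scaled FPKM in cKO and 28.2 ± 3.07 in control libraries, at 0.08 ± 0.22 on the log2 scale (limma adjusted p = 0.837), and the deleted exons were not measured on their own for either gene. The epithelial marker Epcam lay between 378 and 523 scaled FPKM in cKO and between 463 and 488 in control libraries. The titles of cKO 1 and cKO 2 come from another number series than the titles of the other libraries. In such bulk RNA, fewer cells of a type and less RNA per cell cannot be told apart.

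A gene was tested where 3 or more libraries had a scaled FPKM of 1 or higher, which held for 34 of the 54 members and 11315 genes in all. H2-T24, H2-T9 and H2-T22 were higher in cKO and Cd74 was lower, at an adjusted p below 0.05. The 3 higher members stand beside 7.27% of all tested genes called higher, and the 1 lower member beside 6.98% called lower. In both directions together, 11.8% of the tested members were called, against 14.3% of all tested genes, so the share of members called lay near that of genes at large. H2-T9 and H2-T22 are listed on the same stretch. With such overlapping members summed, 2 of 31 tested members were higher and 1 was lower, beside 14.2% of all tested genes called. With TPM in place of the median ratio scale, the split over all tested genes was 512 higher and 1616 lower, against 823 higher and 790 lower here, and no member was called higher. Without control 2 or control 3 no member was called, beside 3.79% and 3.74% of all tested genes. Without cKO 1 and cKO 2 the called members were H2-T24, H2-T9 and H2-M3, higher, and H2-K2, lower. That fit called 11.8% of all tested genes. The median log2 fold change of the 34 members was 0.08, against -0.005 for all tested genes. The groups did not overlap for 5 tested members, the 4 called and H2-Q9, or 14.7% of those tested, against 24.6% of all tested genes. The 18 tested class I heavy chain genes had a median log2 fold change of 0.28, and 14 of them had a positive value. Some of the 18 are listed on shared coordinates and are not separate observations, and with these summed 12 of 15 were positive. The 5 tested class II chain genes had a median of -0.39, and all 5 had a negative value. Without control 3, and without cKO 4, 4 of the 5 were negative. With TPM 5 of 6 were negative. Without the filter 6 of 9 were negative, with a median of -0.07, and H2-DMb2 was at 0.20. Over all 11315 tested genes, 5584 values were positive and 5731 negative. Under quantile normalization 11 of the 18 class I values were positive, and so were 11 of 18 with TPM, a scaling that puts the median of all tested genes at -0.20 and that of the class I genes at 0.11.

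**Figure D1:**
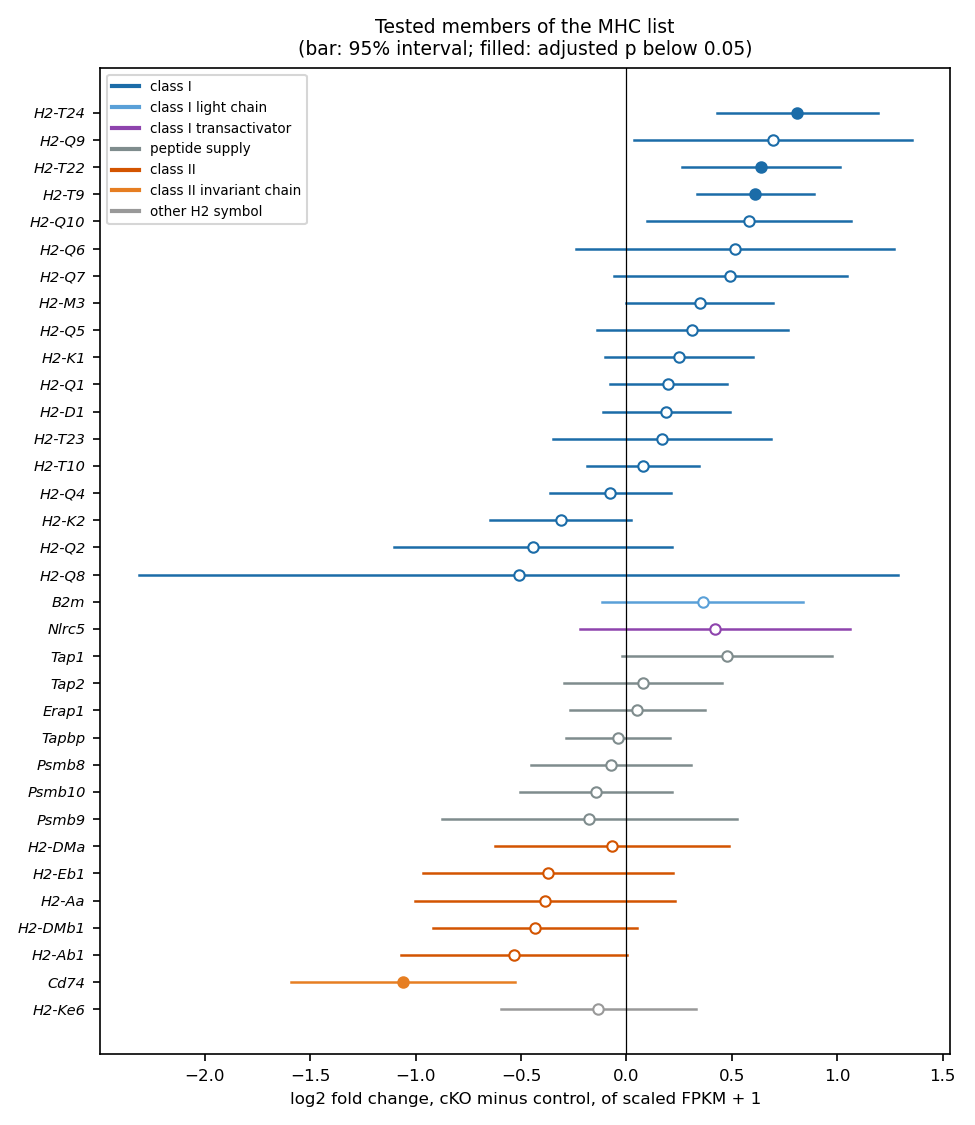
Log2 fold change of scaled FPKM + 1, cKO minus control, for the 34 tested members, with 95% intervals of the limma fit (n = 5 cKO and 3 control libraries). Filled points mark the 4 members with an adjusted p below 0.05: 3 class I genes lie right of 0 and Cd74 lies left of it at -1.06.

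The genes of the classical class I molecule were the most abundant of the list. B2m (chr2:122147687-122153082, mm10) encodes beta-2-microglobulin, the light chain that every class I heavy chain needs to reach the cell surface. Its level was 1019, 1117, 1083, 687 and 1174 scaled FPKM in cKO 1 to 5, against 799.9, 649 and 903 in controls 1 to 3. The groups overlapped, because cKO 4 was lower than controls 1 and 3. The log2 fold change was 0.36 ± 0.21, with a 95% interval of -0.11 to 0.84 (limma adjusted p = 0.267, and exact permutation p = 0.143 over 56 splits, where 0.0179 is the smallest possible). B2m also carries, in its 250 bases upstream, the 3 short motifs looked for in the promoters of the list, and its sequence is shown for that reason.

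The heavy chains H2-K1 and H2-D1, the classical molecules that present peptide to CD8 T cells, came next to B2m in abundance. H2-K1 (chr17:33996012-34000333) was at 691, 606, 671, 463 and 591 scaled FPKM in cKO 1 to 5, against 519.9, 472 and 521 in controls 1 to 3. The value of cKO 4 was the lowest of all 8 libraries, and the other 4 cKO libraries lay above every control. The log2 fold change of H2-K1 was 0.25 ± 0.16, with a 95% interval of -0.10 to 0.60 (limma adjusted p = 0.302, exact permutation p = 0.125). H2-D1 (chr17:35263094-35267497) was at 690.1, 645, 738, 569 and 629.9 scaled FPKM in cKO 1 to 5, against 605, 529 and 584 in controls 1 to 3. Again cKO 4 fell among the controls, below controls 1 and 3. Its log2 fold change was 0.19 ± 0.13, with a 95% interval of -0.11 to 0.49 (limma adjusted p = 0.351, exact permutation p = 0.107). The small positive values of B2m, H2-K1 and H2-D1 were not robust to scaling: under quantile normalization they were -0.02, -0.03 and -0.09, and with TPM they were 0.16, 0.04 and -0.02. With the pan-leukocyte marker level as a term they were 0.07, 0.12 and 0.10, and without control 2 B2m was at 0.23.

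The 250 bases before the RefSeq starts of B2m and H2-K1 (GRCm38.p6) are printed 5′ to 3′ on the strand of the gene. Capitals mark the interferon response-like motif (GAAA, any 2 bases, GAAA), the Y box core CCAAT, the letters bound by NF-Y, and the X2-like motif TGACG, each on either strand, so that CCAAT can read ATTGG and TGACG can read CGTCA. They show where the shared class I promoter letters stand in the 2 chains of the classical molecule.
B2m, chr2:122147437-122147686, + strand: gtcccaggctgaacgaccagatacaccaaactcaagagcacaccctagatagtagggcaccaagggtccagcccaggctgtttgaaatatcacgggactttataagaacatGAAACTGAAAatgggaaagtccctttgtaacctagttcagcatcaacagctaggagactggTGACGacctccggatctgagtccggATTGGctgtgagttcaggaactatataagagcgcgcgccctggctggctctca
H2-K1, chr17:34000348-34000597, - strand: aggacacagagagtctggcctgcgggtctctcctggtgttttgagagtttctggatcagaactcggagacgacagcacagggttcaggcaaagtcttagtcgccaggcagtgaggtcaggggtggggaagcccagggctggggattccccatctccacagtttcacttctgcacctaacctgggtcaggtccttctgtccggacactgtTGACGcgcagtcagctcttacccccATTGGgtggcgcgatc
In B2m the 3 motifs begin 139, 78 and 53 bases before the start, with the interferon response-like one first, the X2-like one next and the Y box core last. H2-K1 holds the X2-like motif 41 and the Y box core 16 bases before its start. It has no exact match to the interferon response-like pattern, and variants of that pattern were not searched for.

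The called class I genes were all from the H2-T region, the non-classical genes whose products present little or no peptide to CD8 T cells and are read by other lymphocytes. H2-T24 (chr17:36005695-36020560) was at 5.79, 8.66, 8.55, 10.9 and 8.62 scaled FPKM in cKO 1 to 5, against 4.73, 3.73 and 4.60 in controls 1 to 3. Every cKO library lay above every control, with cKO 1 nearest to them. H2-T24 was 1.95-fold higher by the group means, and its log2 fold change was 0.81 ± 0.17 (limma adjusted p = 0.0165). The adjusted p ran from 0.00261 to 0.0879 over 24 alternatives, and the call was lost in 5 of them, among these the fits without control 2 (0.72, adjusted p = 0.0879) and without control 3 (0.84, adjusted p = 0.0642). With the pan-leukocyte marker level as a term, the adjusted p was 0.0724, and with the stromal and muscle marker level 0.0643.

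H2-T24 lies across the uncharacterised locus A930015D03Rik over 14866 bases, and whether fragments were assigned by strand is not given in the labels. A930015D03Rik itself was at 5.89, 7.41, 3.73, 5.96 and 4.71 scaled FPKM in cKO 1 to 5, against 4.36, 5.19 and 4.25 in controls 1 to 3. These groups overlapped, and the log2 fold change was 0.20 ± 0.18 (limma adjusted p = 0.464).

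H2-T9 and H2-T22 are listed on the same stretch of chromosome 17 (chr17:36038409-36042702 for H2-T22), so how fragments were divided between them is uncertain. H2-T22 encodes a class I molecule that binds no peptide and is recognised directly by some gamma-delta T cells. H2-T9 was at 23.2, 21.4, 21.99, 29.3 and 28.2 scaled FPKM in cKO 1 to 5, against 16.5, 15.6 and 15.2 in controls 1 to 3. H2-T22 was at 10.4, 14.0, 11.2, 18.5 and 12.7 scaled FPKM in cKO 1 to 5, against 8.44, 7.75 and 8.01 in controls 1 to 3. In both genes every cKO library was above every control, the controls lay close together and cKO 4 was the highest library. Log2 fold changes were 0.61 ± 0.12 for H2-T9 and 0.64 ± 0.17 for H2-T22 (limma adjusted p = 0.0145 and 0.0349).

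Summing them avoids the question of how fragments were divided. The sum was 33.6, 35.4, 33.2, 47.8 and 40.9 scaled FPKM in cKO 1 to 5, against 24.98, 23.3 and 23.2 in controls 1 to 3, a ratio of group means of 1.60. Fitted as 1 gene, the pair stood at 0.65 ± 0.13 on the log2 scale (limma adjusted p = 0.0148), an alternative chosen after the files were seen. The H2-T9 call was lost in 4 of 23 alternatives (adjusted p from 0.00201 to 0.0760), among them without control 2 (0.60, adjusted p = 0.0760) and without control 3 (0.59, adjusted p = 0.0751). The H2-T22 call was lost in 11 of 24 (adjusted p from 0.00515 to 0.139), among them without control 1, 2 or 3 (0.67, 0.61 and 0.64) and without cKO 2 or cKO 5 (0.62 and 0.65). Over those 5 fits its adjusted p was 0.0764, 0.139, 0.123, 0.0630 and 0.0608.

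The H2-T22 promoter is shown because it was the only one among the called genes that the sequence table held, and it has all 3 motifs. The capitals mark the same motifs as above.
H2-T22, chr17:36042743-36042992, - strand: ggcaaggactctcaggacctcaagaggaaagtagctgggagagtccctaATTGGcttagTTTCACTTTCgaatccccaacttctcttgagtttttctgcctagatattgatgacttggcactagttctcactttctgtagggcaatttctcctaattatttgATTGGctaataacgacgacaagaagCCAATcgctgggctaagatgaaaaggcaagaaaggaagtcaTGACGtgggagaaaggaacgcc
Its interferon response-like motif, on the opposite strand, begins 191 bases before the start. It follows a Y box core that begins at 201 bases and precedes those that begin at 88 and 63 bases.

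The values of the remaining tested class I genes that are given in full were chosen after they were seen. H2-T23 was the most abundant heavy chain gene after the classical pair. It encodes Qa-1, whose peptide-filled form is read by CD94/NKG2 receptors of natural killer cells. H2-T23 was at 109.8, 134, 81.2, 101.7 and 169 scaled FPKM in cKO 1 to 5, against 124, 87.5 and 99.7 in controls 1 to 3, with cKO 3 lowest and cKO 5 highest of all libraries. Its log2 fold change was 0.17 ± 0.23 (limma adjusted p = 0.643). H2-T10, a relative of H2-T22, stood at 0.08 ± 0.12 (limma adjusted p = 0.675).

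In the H2-Q region, H2-Q7 and H2-Q9 encode Qa-2 and are listed on the same coordinates, as are H2-Q6 and H2-Q8. H2-Q9 was at 3.50, 4.02, 9.80, 3.61 and 5.56 scaled FPKM in cKO 1 to 5, against 3.12, 1.91 and 3.11 in controls 1 to 3. The groups did not overlap, but cKO 3 stood well above the rest and the test was not passed (log2 fold change 0.69 ± 0.29, limma adjusted p = 0.141). The same library carried the pair: H2-Q7 and H2-Q9 together were at 12.7, 13.6, 27.1, 10.3 and 13.6 scaled FPKM in cKO 1 to 5, against 10.4, 8.28 and 9.26 in controls 1 to 3. H2-Q10, which encodes a secreted class I molecule best known from liver, was at 0.58 ± 0.21 on the log2 scale (limma adjusted p = 0.104). H2-Q4 was the most abundant H2-Q gene, at 41.0 ± 4.05 scaled FPKM in cKO (SD, n = 5) and 43.5 ± 6.64 in control libraries (SD, n = 3). H2-M3, which presents formylated bacterial peptides, was at 1.93 ± 0.439 scaled FPKM in cKO and 1.28 ± 0.161 in control libraries (log2 fold change 0.35 ± 0.15, limma adjusted p = 0.159). The other tested class I genes, H2-K2, H2-Q1, H2-Q2, H2-Q5, H2-Q6, H2-Q7 and H2-Q8, had log2 fold changes between -0.51 and 0.51 with overlapping groups.

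A further 13 class I genes stayed under the filter, and none of them reached 0.1 scaled FPKM in any library. These are H2-L, H2-T3, which encodes the thymus leukaemia antigen of gut epithelium, and 11 of the 12 H2-M genes. H2-L lies wholly within the coordinates of H2-D1, so the division of fragments between them is uncertain and the 0 listed for H2-L does not show that it was not expressed. Class I members resemble one another, which bears on every value above: of the 16 tested class I genes with a GENCODE transcript, a median of 26.4% of the 50-base stretches of the transcript also occur in another gene (0.576% to 50.1%). This share was 44.7% for H2-T22, mostly with H2-T10, 14.3% for H2-D1, 8.79% for H2-K1 and 3.23% for H2-T24. B2m, Cd74, Nlrc5, H2-Aa, H2-Ab1 and H2-Eb1 had no such stretch.

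**Figure D2:**
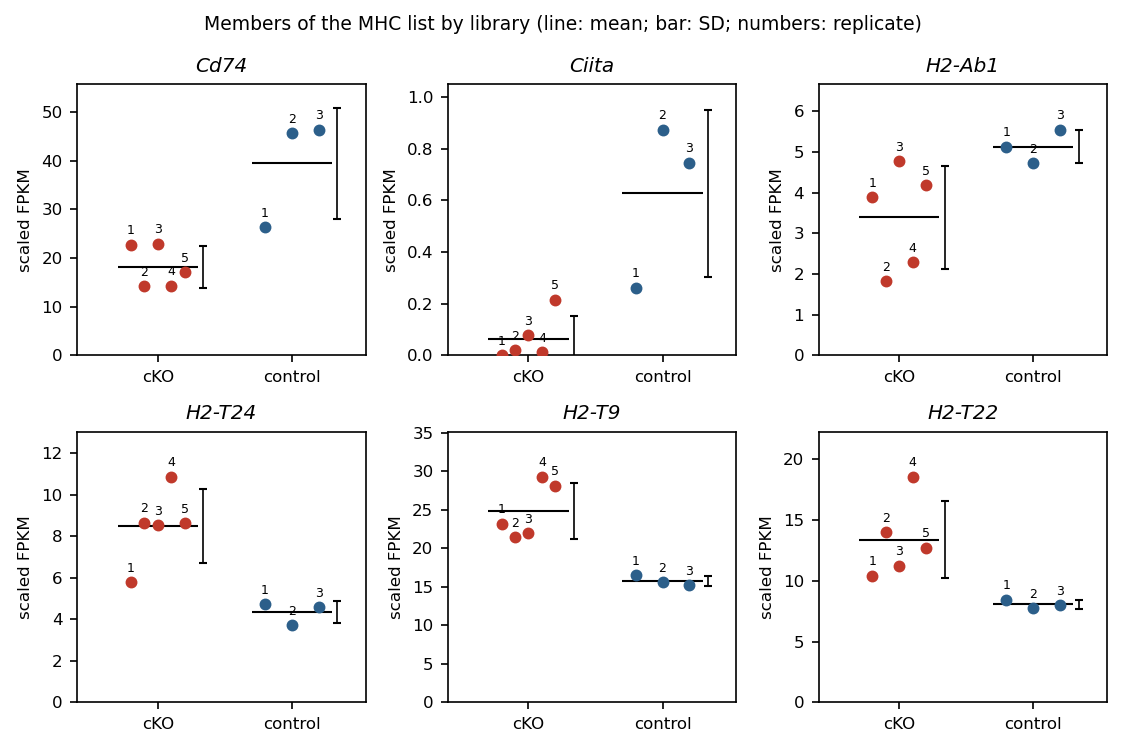
Scaled FPKM of 6 members in each library, with the mean (line) and SD (bar) of cKO (red, n = 5) and control (blue, n = 3); numbers give the replicate and axes start at 0. Cd74 and Ciita are lower in every cKO library than in any control, H2-T24, H2-T9 and H2-T22 are higher, and H2-Ab1 overlaps.

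The genes that supply class I with peptide did not pass the test in either direction in 7 of 7 cases, and 0 of the 7 had an unadjusted limma p under 0.05. Of all 11315 tested genes, 3560 had one. TAP1 and TAP2 form the transporter that moves peptides into the endoplasmic reticulum. Tap1 was at 26.1, 31.2, 27.7, 44.1 and 49.8 scaled FPKM in cKO 1 to 5, against 21.5, 28.1 and 24.5 in controls 1 to 3. It was high in cKO 4 and cKO 5 while cKO 1 and cKO 3 lay below control 2, with log2 fold change 0.48 ± 0.22 (limma adjusted p = 0.174; 0.28 with TPM and 0.27 with a stromal and muscle term). Tap2 was at 22.7, 24.6, 25.5, 28.2 and 35.4 scaled FPKM in cKO 1 to 5, against 21.0, 30.6 and 25.8 in controls 1 to 3, and its difference was 0.08 ± 0.16 on the log2 scale (limma adjusted p = 0.777; -0.12 with TPM). Only cKO 5 exceeded control 2. Tapbp, the gene of tapasin, which holds the empty class I molecule at the transporter, was at 151, 137, 155, 173 and 172 scaled FPKM in cKO 1 to 5, against 154, 168 and 163 in controls 1 to 3. Its groups overlapped with log2 fold change -0.04 ± 0.11 (limma adjusted p = 0.833; 95% interval -0.29 to 0.21).

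PSMB8, PSMB9 and PSMB10 replace the constitutive catalytic subunits to make the immunoproteasome, whose cuts favour class I ligands. Psmb8 was at 75.5, 84.8, 84.7, 101 and 116 scaled FPKM in cKO 1 to 5, against 78.9, 112 and 100.4 in controls 1 to 3. Psmb9 was at 19.7, 29.3, 24.8, 34.5 and 53.5 scaled FPKM in cKO 1 to 5, against 25.1, 46.3 and 35.8 in controls 1 to 3. Psmb10 was at 38.8, 45.8, 39.9, 48.8 and 55.0 scaled FPKM in cKO 1 to 5, against 39.8, 59.4 and 53.4 in controls 1 to 3. In all 3 genes cKO 5 was the highest cKO library and control 1 the lowest control, and the groups overlapped. The log2 fold changes were -0.07 ± 0.17 for Psmb8, -0.18 ± 0.31 for Psmb9 and -0.14 ± 0.16 for Psmb10 (limma adjusted p = 0.795, 0.727 and 0.561). Set against the subunits they replace, Psmb5, Psmb6 and Psmb7, the summed level of the 3 was 0.434, 0.585, 0.584, 0.600 and 0.834 times theirs in cKO 1 to 5, against 0.631, 0.904 and 0.765 times in controls 1 to 3. Erap1, the trimming peptidase, was at 18.2, 16.4, 23.2, 24.5 and 20.5 scaled FPKM in cKO 1 to 5, against 17.5, 21.4 and 20.1 in controls 1 to 3. Its groups overlapped fully, with log2 fold change 0.05 ± 0.14 (limma adjusted p = 0.828; -0.01 without scaling and -0.15 with TPM).

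Nlrc5 (chr8:94472763-94527272), the transactivator of class I genes, was at 0.873, 1.60, 1.91, 1.52 and 3.82 scaled FPKM in cKO 1 to 5, against 0.716, 1.05 and 1.60 in controls 1 to 3. The highest value was that of cKO 5, and cKO 1 lay between controls 1 and 2. The log2 fold change was 0.42 ± 0.28 (limma adjusted p = 0.331, exact permutation p = 0.232). It was 0.23 without cKO 5, 0.28 without control 1 and 0.17 with the pan-leukocyte level as a term, and 0.66 with a pseudocount of 0.1, 0.66 without cKO 1 and cKO 2 and 0.65 with the title series as a term.

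On the class II side, the invariant chain and the transactivator were lower in every cKO library than in any control, while the class II chains themselves overlapped between groups. Cd74 (chr18:60803849-60812652) was at 22.7, 14.2, 22.9, 14.3 and 17.1 scaled FPKM in cKO 1 to 5, against 26.3, 45.7 and 46.4 in controls 1 to 3. Controls 2 and 3 were about alike and control 1 stood much closer to the cKO libraries. The group means were 18.2 ± 4.32 scaled FPKM in cKO (SD, n = 5) and 39.5 ± 11.4 in control libraries (SD, n = 3), so that Cd74 was 2.16-fold higher in control libraries. The log2 fold change was -1.06 ± 0.23 (limma adjusted p = 0.0205), and exact permutation gave 0.0179, the lowest p it can reach. It kept its sign in 24 alternatives, from -1.32 to -0.92, with an adjusted p from 0.00224 to 0.105. The call was lost without control 2 (-0.93, adjusted p = 0.105), without control 3 (-0.92, adjusted p = 0.0989), without cKO 1 and cKO 2 (-1.06, adjusted p = 0.0505), and with the pan-leukocyte (-1.15, adjusted p = 0.0611) or the stromal and muscle marker level (-1.08, adjusted p = 0.0697) as a term.

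The tables list a shorter and a longer Cd74 transcript, the longer of 1415 bases. The shorter one was at 22.7, 14.2, 19.1, 13.0 and 15.1 scaled FPKM in cKO 1 to 5, against 22.6, 40.4 and 40.9 in controls 1 to 3. The longer one was listed at 0 in cKO 1 and cKO 2 and was at 3.79, 1.36 and 2.02 scaled FPKM in cKO 3 to 5, against 3.74, 5.26 and 5.54 in controls 1 to 3. In the libraries with a value, the longer transcript made up 9.47% to 16.6% of Cd74 in cKO and 11.5% to 14.2% in control libraries. The libraries listed at 0 are those of the other title series.

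Ciita (chr16:10480072-10527640), the transactivator that class II genes and Cd74 depend on, stayed under the filter and was not tested in the fit over all genes. It was at 0, 0.0197, 0.0766, 0.0107 and 0.215 scaled FPKM in cKO 1 to 5, against 0.262, 0.874 and 0.746 in controls 1 to 3. The highest cKO library, cKO 5, came close to control 1, and controls 2 and 3 were far above both. Exact permutation gave p = 0.0179, the smallest possible, and the same test was run on 9 members with no adjustment. Without the filter Ciita stood at -0.60 ± 0.13 on the log2 scale (limma adjusted p = 0.0354), and with a pseudocount of 0.1 as well, a setting added after the data were seen, -2.16 ± 0.46 (limma adjusted p = 0.0272). In estimated fragments these levels are 0, 4.75, 19.0, 2.85 and 54.1 in cKO 1 to 5, against 69.4, 251 and 215 in controls 1 to 3, so the cKO values rest on few fragments.

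Ciita is known to be read from separate promoters, the upstream one used by dendritic cells and the most downstream one by cells exposed to interferon-gamma. The tables list transcripts with 3 starts on chromosome 16, at 10480072, 10488178 and 10489781. The most downstream start was at 0, 0.0197, 0, 0.0107 and 0.0655 scaled FPKM in cKO 1 to 5, against 0.122, 0.874 and 0.746 in controls 1 to 3. It held all of the signal in controls 2 and 3. The upstream start had 0.0766 in cKO 3 and 0.149 in cKO 5, against 0.0508 in control 1, and was listed at 0 in the other 5 libraries. The middle start had a value in control 1 alone, 0.0896 scaled FPKM. At these levels the division between starts rests on the authors' transcript model and has no replicate check of its own.

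**Figure D3:**
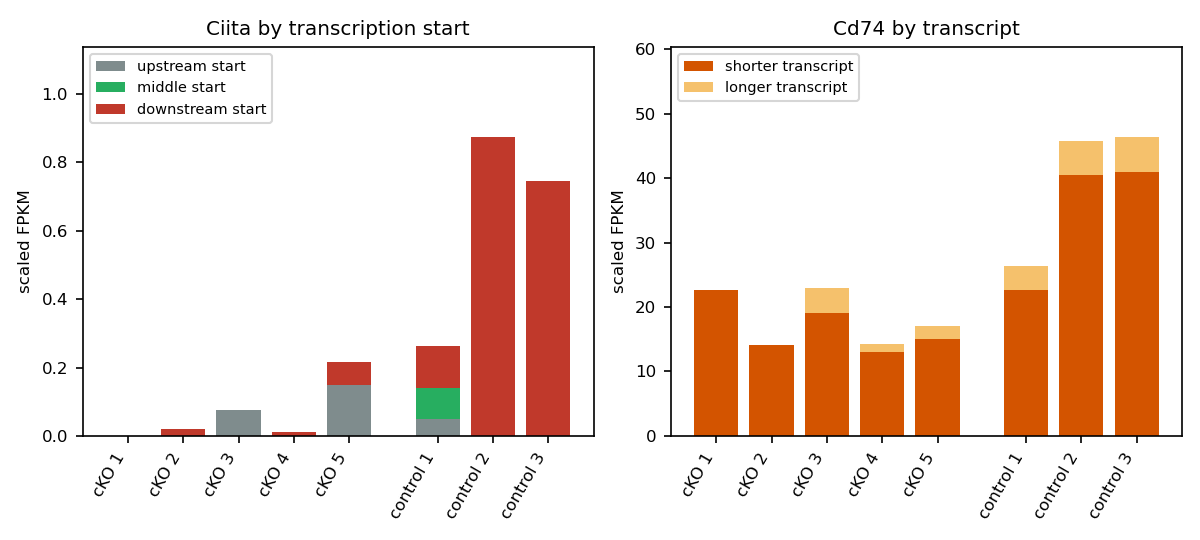
Left, Ciita in scaled FPKM by transcription start; right, Cd74 in scaled FPKM by transcript; bars are single libraries, cKO 1 to 5 and then controls 1 to 3. Controls 2 and 3 hold Ciita from the downstream start, at 0.874 and 0.746, and the longer Cd74 transcript is at 0 in cKO 1 and cKO 2.

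H2-Aa and H2-Ab1 encode the alpha and beta chains of I-A, and H2-Eb1 the beta chain of I-E. H2-Aa was at 2.44, 2.46, 5.18, 1.46 and 2.74 scaled FPKM in cKO 1 to 5, against 4.58, 2.76 and 4.34 in controls 1 to 3. H2-Ab1 was at 3.89, 1.82, 4.77, 2.30 and 4.18 scaled FPKM in cKO 1 to 5, against 5.13, 4.73 and 5.55 in controls 1 to 3. H2-Eb1 was at 1.47, 0.723, 2.60, 0.558 and 1.18 scaled FPKM in cKO 1 to 5, against 2.25, 1.51 and 1.83 in controls 1 to 3. In each of these genes cKO 3 was the highest cKO library and lay above at least 1 control. Log2 fold changes were -0.39 ± 0.27 for H2-Aa, -0.53 ± 0.24 for H2-Ab1 and -0.37 ± 0.26 for H2-Eb1 (limma adjusted p = 0.354, 0.160 and 0.356; exact permutation p = 0.286, 0.125 and 0.25). The 95% intervals were -1.004 to 0.23, -1.07 to 0.0019 and -0.96 to 0.22. All 3 intervals hold 0 and overlap that of Cd74, -1.59 to -0.53, and the difference between Cd74 and the chains was not tested. These values moved with the setting. With a stromal and muscle term in the fit H2-Aa, H2-Ab1 and H2-Eb1 were at -0.04, -0.30 and -0.0019, and with TPM at -0.65, -0.81 and -0.68. H2-Aa and H2-Eb1 were at -0.24 and -0.25 without cKO 4, and at -0.78 and -0.57 with the pan-leukocyte level as a term. With a pseudocount of 0.1 H2-Eb1 was at -0.65. At these levels the genes rest on few fragments, 80.8 to 252 in cKO and 164 to 259 in control libraries for H2-Aa.

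H2-DMa and H2-DMb1 encode the H2-DM peptide exchanger. H2-DMa was at 3.25 ± 0.999 scaled FPKM in cKO (SD, n = 5) and 3.50 ± 1.37 in control libraries (SD, n = 3), with log2 fold change -0.07 ± 0.25 (limma adjusted p = 0.872). H2-DMb1 was at 4.25 ± 1.29 scaled FPKM in cKO and 6.02 ± 1.34 in control libraries (log2 fold change -0.43 ± 0.21, limma adjusted p = 0.198). Its close copy H2-DMb2, which shares 26.8% of its 50-base stretches with it, stayed under the filter, at 0.436 to 2.32 scaled FPKM in cKO and 0.534 to 0.899 in control libraries. H2-Oa and H2-Ob, the chains of the B cell and thymic modulator H2-O, reached at most 0.110 and 0.0624 scaled FPKM in cKO and 0.0939 and 0.0440 in control libraries. H2-Eb2 reached 0.0258 scaled FPKM at most, and H2-Ea-ps was listed at 0 in all 8 libraries.

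The H2-Aa promoter is shown as the class II counterpart of the class I ones. Here capitals also take in the palindrome TGACGTCA, which reads as the X2-like motif on both strands.
H2-Aa, chr17:34287824-34288073, - strand: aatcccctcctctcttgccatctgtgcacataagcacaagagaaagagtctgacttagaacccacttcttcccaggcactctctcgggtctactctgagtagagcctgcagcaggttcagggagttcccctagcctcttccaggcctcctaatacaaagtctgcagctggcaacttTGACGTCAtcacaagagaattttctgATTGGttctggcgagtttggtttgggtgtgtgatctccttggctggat
The X2-like letters begin 74 bases and the Y box core 48 bases before the start, the order in which X2 and Y boxes are known to stand in class II promoters.

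Markers of dendritic cells, macrophages and B cells, which make class II constitutively, were measured in the same libraries. Of 7 dendritic cell markers none passed the filter, and Flt3, Clec9a and Xcr1 were at or below 0.0801 scaled FPKM in every library. Itgax was the highest of the list, at 0.348 to 1.62 scaled FPKM in cKO and 0.222 to 1.21 in control libraries. The summed level of that list was 0.795 to 2.57 scaled FPKM in cKO and 0.843 to 1.81 in control libraries. The macrophage list summed to 3.76 to 13.9 scaled FPKM in cKO and 6.98 to 13.8 in control libraries. Of its 7 members 4 were tested and 0 called, with 0 at an unadjusted limma p under 0.05. Over all tested genes 3560 of 11315 had such a p. Ms4a1 and Pax5 of the B cell list were at or below 0.0620 scaled FPKM, while Cd79b of that list was at 4.80 to 9.70 in cKO and 4.27 to 6.01 in control libraries.

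Most of the pan-leukocyte list ran the other way from Cd74. Its sum was 38.8, 79.6, 77.6, 28.5 and 58.3 scaled FPKM in cKO 1 to 5, against 27.9, 31.3 and 40.3 in controls 1 to 3. Of its 5 genes, Ptprc, Cd52, Cd53 and Coro1a had positive log2 fold changes, from 1.12 to 1.21, that missed the threshold (limma adjusted p from 0.0539 to 0.0931), and Laptm5, a lysosomal protein of blood cells, was lower in cKO (-1.02 ± 0.28, limma adjusted p = 0.0436). Neutrophil markers summed to 295 to 1965 scaled FPKM in cKO and 208 to 399 in control libraries. Most of this sum was S100a8 and S100a9, with means of 397 and 840 in cKO and 65.0 and 207 in control libraries. All 5 tested genes of that list had positive log2 fold changes, and 1 of them, Retnlg, was higher in cKO (3.17 ± 0.85, limma adjusted p = 0.0392). S100a8, S100a9, Csf3r and Cxcr2 overlapped between groups and were not called (limma adjusted p from 0.0540 to 0.217). The stromal sum was 39.9 to 198 scaled FPKM in cKO, highest in cKO 3, and 76.9 to 201 in control libraries, highest in control 1. Of their groups, cKO 3 had the most Cd74 and control 1 the least. The Cd74 level of cKO 1, 22.7 scaled FPKM, was close to the 22.9 of cKO 3, while its stromal sum was 45.5. The smooth muscle sum was 15.0 to 90.8 scaled FPKM in cKO and 48.7 to 261 in control libraries, again highest in control 1. Only the pan-leukocyte level and the stromal and muscle level entered a fit as a term. No dendritic cell, macrophage or B cell level did. Ptprc of the pan-leukocyte list was higher in every cKO library than in any control. That term is thus partly aligned with genotype in these 8 libraries and cannot separate the 2. The part of these cell types in the class I and class II values was not tested.

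Summed over genes, class I outweighed class II in every library. The class I heavy chains summed to 1624, 1545, 1671, 1281 and 1548 scaled FPKM in cKO 1 to 5, against 1371, 1218 and 1337 in controls 1 to 3. Of the cKO libraries, cKO 4 alone fell among the controls. The means were 1534 ± 151 in cKO (SD, n = 5) and 1309 ± 80.2 in control libraries (SD, n = 3), a ratio of 1.17 and a log2 ratio of 0.23, which was 0.02 with TPM and -0.02 under quantile normalization. H2-K1 and H2-D1 made up 82.0% ± 2.61 of the class I sum in cKO and 82.3% ± 0.336 in control libraries.

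The class II chains summed to 13.8, 13.2, 23.8, 10.5 and 19.7 scaled FPKM in cKO 1 to 5, against 19.2, 20.4 and 24.1 in controls 1 to 3. Here cKO 3 and cKO 5 fell among the controls, and the means were 16.2 ± 5.42 in cKO and 21.2 ± 2.54 in control libraries, a log2 ratio of -0.39. The class I sum was 117, 117, 70.1, 122 and 78.4 times the class II sum in cKO 1 to 5, against 71.3, 59.7 and 55.4 times in controls 1 to 3. It was thus largest in cKO 1, 2 and 4, and cKO 3 lay just below control 1. This ratio within a library does not depend on the linear scaling of libraries; its group means were 101 ± 24.6 in cKO and 62.1 ± 8.19 in control libraries, a log2 ratio of 0.70, or 0.38 under quantile normalization. Cd74 stood at 1.64, 1.07, 0.961, 1.36 and 0.865 times the class II sum in cKO 1 to 5, against 1.37, 2.24 and 1.93 times in controls 1 to 3, with cKO 1 above control 1.

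**Figure D4:**
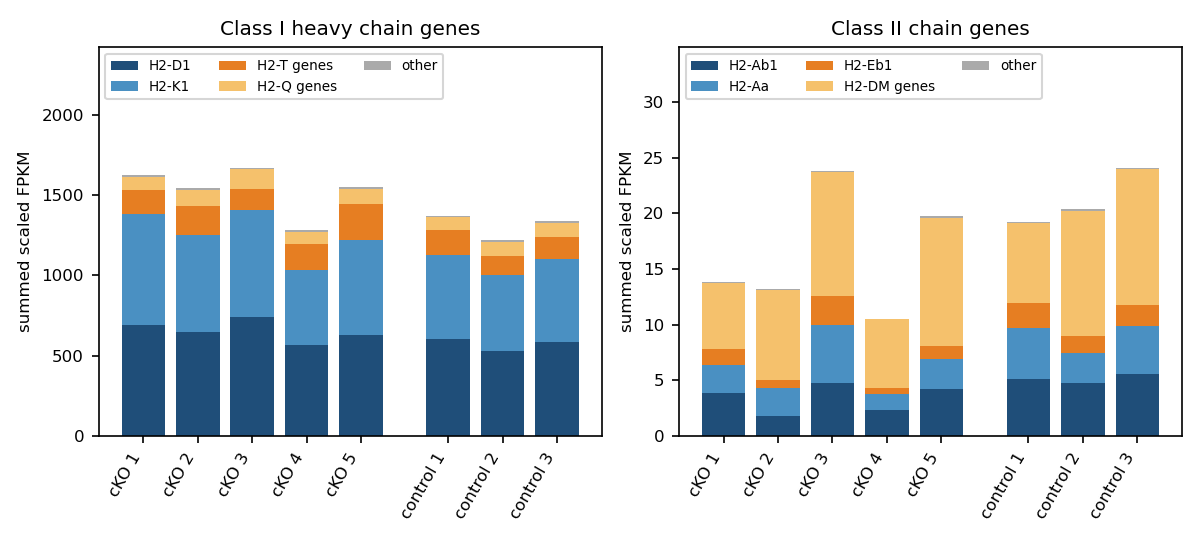
Summed scaled FPKM of the class I heavy chain genes (left) and the class II chain genes (right) in each library, cKO 1 to 5 and then controls 1 to 3, stacked by gene or gene region. Class I sums run from 1281 to 1671 in cKO and 1218 to 1371 in control libraries; class II sums run from 10.5 to 23.8 and from 19.2 to 24.1 on a much shorter axis.

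Other genes of the pathway were read from a list of 60, of which 59 were in the tables and 43 were tested. Of the 43, 4 were higher and 1 was lower in cKO, 11.6% in all, near the 14.3% of all tested genes, and the median log2 fold change was 0.10. Of the calls, 3 fell among the 7 tested genes of class II peptide handling, a role that takes in lysosomal proteases, a reductase and the membrane ubiquitin ligase gene March8. Ifi30, the thiol reductase GILT that opens disulphide bonds of antigens, was at 70.0, 72.9, 76.6, 75.5 and 85.0 scaled FPKM in cKO 1 to 5, against 43.8, 39.5 and 32.7 in controls 1 to 3. Lgmn, the asparagine endopeptidase, which cuts the invariant chain, was at 48.0, 54.8, 54.7, 51.1 and 53.0 scaled FPKM in cKO 1 to 5, against 36.0, 25.5 and 25.3 in controls 1 to 3. In both genes the groups lay far apart. Log2 fold changes were 0.96 ± 0.11 for Ifi30 and 0.85 ± 0.13 for Lgmn (limma adjusted p = 0.00166 and 0.00451), and both calls were kept in 24 of 24 alternatives.

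Ctsb, the lysosomal protease cathepsin B, was at 789, 841, 452, 899 and 784 scaled FPKM in cKO 1 to 5, against 466, 283 and 279.7 in controls 1 to 3. Only cKO 3 fell below control 1. Its log2 fold change was 1.14 ± 0.27 (limma adjusted p = 0.0247), and the call was lost in 8 of 24 alternatives, among them without control 2 (1.02), control 3 (1.01), cKO 1 (1.11) or cKO 5 (1.11). Ctss, cathepsin S, which makes the last cut of the invariant chain, was not called, at 19.0 ± 4.44 scaled FPKM in cKO (SD, n = 5) and 24.5 ± 4.69 in control libraries (SD, n = 3; limma adjusted p = 0.284).

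Among the 18 regulators, Socs1, an inhibitor of interferon receptor signalling, was higher in cKO, at 2.04, 2.22, 2.02, 1.98 and 4.18 scaled FPKM in cKO 1 to 5, against 0.716, 1.32 and 1.01 in controls 1 to 3. All cKO libraries were above the controls and cKO 5 was the highest (log2 fold change 0.77 ± 0.21, limma adjusted p = 0.0400, lost in 12 of 23 alternatives). Nfyb, a subunit of the factor NF-Y that binds the Y box, was lower, at 5.54, 4.60, 6.59, 4.38 and 5.19 scaled FPKM in cKO 1 to 5, against 6.74, 8.53 and 7.76 in controls 1 to 3. The groups lay close, with cKO 3 just under control 1 (log2 fold change -0.48 ± 0.13, limma adjusted p = 0.0440, lost in 14 of 24 alternatives). Without 1 library, the Socs1 call was lost for any control (0.66, 0.87 and 0.77 without control 1, 2 and 3) and for cKO 1 (0.81) or cKO 2 (0.79). The Nfyb call was lost without any control (-0.56, -0.41 and -0.47) and without cKO 1 (-0.49), cKO 2 (-0.44), cKO 4 (-0.42) or cKO 5 (-0.48).

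Some further genes outside the rule for named genes were chosen after their values were seen: Ctss above, and Ifngr2 and Irf1 among the regulators. Ifngr2, a subunit of the interferon-gamma receptor, was the most abundant regulator, at 153 ± 22.4 scaled FPKM in cKO and 183 ± 8.70 in control libraries (limma adjusted p = 0.187). Irf1, a transcription factor induced by interferon-gamma that acts on class I genes, differed by -0.04 ± 0.25 on the log2 scale, cKO minus control (limma adjusted p = 0.927). The remaining roles held no called gene. An unadjusted limma p under 0.05 was found for 2 of 5 loading, 2 of 6 proteasome, 1 of 4 class I-like and 1 of 3 co-stimulatory genes. Over all tested genes it was found for 3560 of 11315. Calr, the chaperone calreticulin of the loading complex, led its group of 5 tested genes at 916 ± 242 scaled FPKM in cKO and 615 ± 192 in control libraries (0.58 ± 0.26, limma adjusted p = 0.168). Of the 6 proteasome genes outside the member list, Psme1, a subunit of the proteasome activator, was the most abundant (138 ± 16.7 scaled FPKM in cKO, 159 ± 8.80 in control libraries, limma adjusted p = 0.279). Among 4 tested class I-like genes Mr1, which presents microbial vitamin metabolites, led at 9.38 ± 3.99 scaled FPKM in cKO and 8.77 ± 0.558 in control libraries (limma adjusted p = 0.988). Of the 3 tested co-stimulatory and checkpoint genes, Cd274, the gene of the inhibitory ligand PD-L1, was the most abundant in cKO, at 7.90 ± 2.09 scaled FPKM there and 4.37 ± 1.22 in control libraries (0.72 ± 0.22, limma adjusted p = 0.0587). No NKG2D ligand gene of the 8 in the tables passed the filter.

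The promoter table held the 250 bases upstream of 38 members and of 27025 genes in all. The Y box core CCAAT, on either strand, was in 31 of the 38, or 81.6%, against 34.5% of all promoters. It was in 19 of 22 class I and 7 of 8 class II promoters. The X2-like TGACG was in 15 of 38, or 39.5%, against 17.9% of all, and in 11 of 22 class I and 1 of 8 class II promoters. The interferon response-like motif was in 3 of 38 (7.89%), those of B2m, H2-T23 and H2-T22, against 3.04% of all. Only the exact letters were searched for, so a promoter without a match may still hold a variant of the element. The class I promoters derive from related genes and are not independent of one another, and a match describes letters and not a bound site. The called genes Cd74, H2-T24 and H2-T9, and Ciita, are named only.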

How the data were processed

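RNA of the uterine epithelium was sequenced as 8 libraries, 5 cKO and 3 control, grouped by their genotype labels. Replicate numbers only name the libraries. Per the submitters' processing notes, the tools were bcl2fastq 1.8.3, TopHat and Cufflinks on mm10; neither the TopHat and Cufflinks versions nor the annotation or strand setting is given in the sources used here. Per the file headers, the deposited values are FPKM of each transcript, which the authors computed per library, each with a 95% interval and a status. The deposited transcript lengths served to describe transcripts and to estimate depth and fragments. The deposited coverage signal (mean depth, per the file headers) was not used for the values given here. No counts were used, and depth was estimated from the width of the FPKM intervals.

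FPKM was summed per gene symbol and scaled by the median ratio over genes with at least 1 FPKM in every library. A total of 15 genes with a status other than OK in any library were left out, 0 of them members. Genes that reached a scaled FPKM of 1 in 3 or more libraries entered a two-sided limma 3.58.1 fit (R 4.3.3) of log2(scaled FPKM + 1), with a trend in the variance and Benjamini-Hochberg adjustment over all tested genes; an adjusted p below 0.05 is a call. This scale understates the change of low genes. Fold changes carry the standard error of the fit, and group values the SD. The fit was tested on simulated data. For 9 members, group means were also compared by a two-sided exact permutation test with 56 arrangements of the group labels. Class sums are described without a test. Some listed genes are not reported here by name.

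Values of every library are given by rule for called members, B2m, H2-K1, H2-D1, Cd74, H2-Aa, H2-Ab1, H2-Eb1, Ciita, Nlrc5 and the peptide supply genes; among the pathway genes, called ones are named and, in roles without any, the most abundant. The members, the lists and the tests were chosen with earlier results of these data known. Alternatives were other scalings, pseudocounts, filters and variance models, the most abundant transcript in place of the sum, leaving out libraries, and marker levels or the title series as a term. Coordinates are those of the deposited mm10 tables, written 1-based; symbols and promoters are from RefSeq on GRCm38.p6, and shared sequence from GENCODE transcripts, read with Python 3.11.15 and pandas 2.3.3.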

Additional observations from a re-analysis of the deposited data

Results flagged for a closer look

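In 40 groups of cKO values (35 members, 4 class sums or ratios, and the immunoproteasome ratio), 4 held a library far from the rest by Dixon's gap test. Chance flags about 1 in 20 groups. H2-Q7 in cKO 3 was at 17.3 scaled FPKM, against 6.74 to 9.54 in the other 4 cKO libraries. H2-Q8 in cKO 3 was at 18.7 scaled FPKM, against 0 to 4.94 in the others. H2-Q8 overlaps H2-Q6, and the division of fragments between them is uncertain. Their sum was 12.4, 14.7, 23.7, 10.1 and 12.5 scaled FPKM in cKO 1 to 5. H2-M3 in cKO 1 was at 1.18 scaled FPKM, against 1.92 to 2.22 in the others. H2-Q1 in cKO 4 was at 8.47 scaled FPKM, against 10.9 to 11.9 in the others.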

How the results depend on the processing

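The counts of called members and pathway genes rested on the controls. Leaving out 1 library at a time, or cKO 1 and cKO 2 together, gave 0 to 4 members higher and 0 to 2 lower, and 2 to 5 pathway genes higher and 0 to 1 lower. In these fits the share of all tested genes called ran from 3.74% to 16.3%. Without control 2 or control 3 no member was called, while 424 and 418 of all tested genes were called, against 1613 with all libraries. Array weights gave 5 members higher and 3 lower, and 10 pathway genes higher. That setting called 31.2% of all tested genes, against 14.3% in the main fit. TPM gave 0 members higher and 4 pathway genes lower. Quantile normalization gave 4 pathway genes lower. FPKM without scaling and a term for title series gave 0 pathway genes lower. Without the filter 2 members were lower, 2 pathway genes were higher and 0 were lower; with a pseudocount of 0.1 as well, 2 members were lower. A term for pan-leukocyte level left 1 member higher, 0 lower and 0 pathway genes lower, with 8.01% of all tested genes called. A term for stromal and muscle level left 0 members in either direction, 2 pathway genes higher and 0 lower. With that term 6.19% of all tested genes were called, so calls fell over all genes as well. The cause of these changes was not tested.

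The class I log2 ratio of group means was 0.0236 with TPM and -0.0232 under quantile normalization, and without H2-K1 and H2-D1 it was 0.0406 with TPM. Uncalled log2 fold changes near 0 changed sign. Smad3 was at -0.12 with TPM, -0.0188 with array weights, -0.19 with a title series term and -0.18 without cKO 1 and cKO 2, and from -0.0452 to 0.20 without single libraries. Erap1 was at -0.00773 without scaling, -0.15 with TPM and -0.0141 with array weights, and from -0.0264 to 0.13 without single libraries. Tap2 was at -0.12 with TPM, -0.0222 with array weights and -0.0647 with a stromal and muscle term, and from -0.0572 to 0.21 without single libraries. Tapbp was at 0.0443 with a title series term, 0.0405 with a pan-leukocyte term and 0.0501 without cKO 1 and cKO 2, and from -0.0743 to 0.0109 without single libraries. Psmb8 was at 0.0528 with a title series term and 0.0586 without cKO 1 and cKO 2, and from -0.22 to 0.0381 without single libraries. Psmb9 was at 0.0473 and 0.0530 in the same settings, and from -0.40 to 0.0283 without single libraries. H2-D1 was at -0.0159 with TPM, and H2-D1, H2-K1 and B2m were at -0.0915, -0.0345 and -0.0233 under quantile normalization. Cd74 and the 3 called class I genes kept their sign in every alternative run.

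No paired analysis was possible because the replicate numbers follow accession order and the labels pair no control with a cKO library. FPKM without counts, related class I sequences, overlapping gene models and 3 control libraries limit the precision, and values under 1 FPKM rest on few fragments.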

Other observations

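The members with an H2 symbol, which lie on chromosome 17, span 3.51 Mb, from H2-K2 to H2-M2 (chr17:33974659-37483529, mm10), which the tables fill with 155 other genes. Of these, 85 were tested, 4 were higher and 4 were lower in cKO (limma, adjusted p below 0.05), 9.41% in all, against 14.3% of all tested genes. This set was chosen after the data were seen. The higher genes were Neu1, a lysosomal sialidase, at 66.6 scaled FPKM in cKO and 33.0 in control libraries (log2 fold change 0.97 ± 0.17, adjusted p = 0.00956), Rnf39 (1.03 ± 0.23), Ddr1, a collagen receptor kinase (0.76 ± 0.18), and Gnl1 (0.30 ± 0.08). The lower genes were Cyp21a1, the steroid 21-hydroxylase, at 0.453 scaled FPKM in cKO and 46.0 in control libraries (-4.95 ± 0.27), Trim40 (-0.86 ± 0.14), and the complement genes C4b and C4a (-0.70 ± 0.14 each). Cyp21a1 could not have passed the filter without the control libraries, where it was high, so its test is not independent of that difference. C4a and C4b are near-identical copies of each other, so their values are uncertain.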
